A study of Mus musculus with 18 samples.

Results

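Transport into mitochondria was examined in mouse bone marrow stromal cell clones through 62 genes: 40 Slc25a genes, which encode carriers of metabolites and ions, 15 Timm genes and 7 Tomm genes, which with few exceptions encode parts of the machinery that brings proteins into the organelle. Members were the probe sets of the Affymetrix chip types MG_U74Av2, MG_U74Bv2 and MG_U74Cv2 (A, B and C below) for which the platform annotation gives a single symbol that starts with Slc25a, Timm or Tomm and a number. They came to 108 of the 36701 probe sets on the 3 chip types. Another 2 probe sets that carry such a symbol beside others were left out. The study compared 3 RNAs of CD34+ clones with 3 RNAs of CD34- clones on all 3 chip types, 18 arrays in all. Both kinds of clone came from adult mouse bone marrow, were isolated as single cell colonies and were grown in DMEM with fetal bovine serum. CD34 is a sialomucin of the cell surface. Neither the strain and age of the mice nor the passage of the clones is given in the sources used here. The labels leave out whether the 3 RNAs of a group are from separate clones, cultures or animals. The p-values thus cover the spread among these RNAs, possibly a technical one, and with 1 clone per group, clone and CD34 status cannot be told apart.

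The inner mitochondrial membrane lets few solutes pass, and carriers of the SLC25 family exchange ADP for ATP, bring in phosphate, and move citrate, malate, glutamate, nucleotides, cofactors and iron across it. Nearly all mitochondrial proteins are made in the cytosol and enter through the TOM complex of the outer membrane. From there, proteins with a presequence pass through the TIM23 complex of the inner membrane, whereas the carriers themselves are escorted by small TIM chaperones of the intermembrane space to the TIM22 complex. Stromal cells need these functions, as other nucleated cells do, and many of the genes are transcribed in most tissues.

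The deposited arrays of the groups were on different scales, with CD34- arrays below CD34+ arrays by a factor of 14.1 to 19.6 on A, 45 to 55.9 on B and 83.8 to 120 on C, so the 6 arrays of a chip type were quantile normalized. Cd34, read by 2 probe sets on A, was higher in the CD34+ clones with both; the first gave 881 ± 82 against 120 ± 56.3 signal units (SD, n = 3 each; adjusted p = 0.000374, limma). Stromal marker genes differed in brightness. Col1a1, a collagen chain, was bright in both groups, at 19937 ± 1771 in CD34+ against 42616 ± 2455 signal units in CD34- RNAs (94305_at on A, SD, n = 3 each). Thy1 was too dim to test, at 57.3 ± 42.5 against 39.5 ± 18.4 units. Nt5e read 146 ± 44.7 against 173 ± 30.7 units with its probe set on A (SD, n = 3 each). Of 20 stromal marker probe sets tested, 11 fell in the CD34+ clones and 0 rose. All 11 were among the 18 tested on A, where 6.69% of all probe sets fell. The summed signal of the stromal list, with 3 dim probe sets included, was 67604 to 71739 against 132268 to 142203. Most of that signal came from collagen chains in both groups. Leukocyte and myeloid markers had 6 of 22 probe sets bright enough to test, with 0 called (limma; 0 at an unadjusted p under 0.05) and a summed signal of 2937 to 3439 against 3474 to 3563, while Ptprc, which encodes the leukocyte antigen CD45, lay at 2.97 ± 1.19 to 22.8 ± 1.5 units in the CD34+ RNAs and at 7.89 ± 5.48 to 23.0 ± 5.41 units in the CD34- RNAs with its 3 probe sets. Lymphoid, erythroid, endothelial and adipocyte markers had 1 probe set each to test, with 0 called by limma and 1, the endothelial one, at an unadjusted p under 0.05. Of 7 skeletal muscle probe sets, Myod1 rose (log2 difference 1.13) and Acta1 fell (-1.10). The ratio of 3' to 5' probe signal, a measure of RNA integrity, did not overlap between the groups on A, at 0.7 to 0.771 against 0.802 to 0.832 for Gapdh and 1.03 to 1.09 against 1.1 to 1.2 for beta actin. Both ratios overlapped on B, and on C that of Gapdh did. The part of these differences in the results that follow was not tested.

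Probe sets entered the test if they exceeded the array's 40th percentile on 3 or more of the 6 arrays. That left 88 member probe sets of 56 genes, 40 on A, 34 on B and 14 on C, and 67 of the 88 were above that level on all 6 arrays. No probe set was bright enough for Timm8a2, Slc25a14, Slc25a26, Slc25a27, Slc25a35 and Tomm22. The dimmest of these was Timm8a2, a relative of the small TIM chaperone gene Timm8a1, at 6.97 to 29.9 signal units over the 6 RNAs, and the brightest was Tomm22, a receptor subunit of TOM, at 78.4 to 501. Differences are given as CD34+ minus CD34- on the scale of log2(signal + offset), where the offset is the 20th percentile of the chip type's normalized signals (51.5, 106 and 97.9 on A, B and C), so that changes of dim probe sets are understated.

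Of the 88 probe sets, 5 passed the test (adjusted p under 0.05, limma, Benjamini-Hochberg over all probe sets tested on the chip type). Slc25a13, Timm17a and Timm8a1 were higher in CD34+ clones, and Slc25a36 and Tomm20 were lower. On A, 2 of 40 members rose, where 8.21% of all 7634 probe sets did, and 1 fell, where 6.69% of all did. The shares of members called on A lay below these backgrounds, but by so few probe sets that this says little about the group. On B, 1 of 34 rose and 1 fell, against backgrounds of 0.685% and 0.401% of 7737 probe sets. With 1 call in each direction, and that of Slc25a13 on a probe set that had to differ, these counts on B say little about the group as a whole. On C, 0 of 14 members were called by limma, against a background of 0.0936% of 7481. There, 1 member and 661 of all probe sets had an unadjusted p under 0.05. The other 51 genes tested had no called probe set.

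Among the substrate carriers, Slc25a13 had 1 called probe set. Its product, called citrin or AGC2, exchanges aspartate for glutamate across the inner membrane and takes part in the malate-aspartate shuttle and the urea cycle. On B, its probe set 162618_at read 405, 465 and 409 signal units in CD34+ RNAs 1 to 3 and 16.0, 18.1 and 22.6 in CD34- RNAs 1 to 3. The CD34+ values were thus all well above the CD34- values, which lay below the offset. This probe set passed the filter through the CD34+ arrays alone, so it had to differ in order to be tested, and its adjusted p of 0.0275 (limma) is to be read with that. With no filter at all, the adjusted p was 0.0149 (limma). The size of the difference was set largely by the offset: 2.09 on the log2 scale as fitted, 3.14 with the 5th and 1.26 with the 40th percentile as the offset, so no fold is given. In RNA of whole cultures, more transcript per cell and more cells with the transcript cannot be told apart.

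A second probe set of Slc25a13 on B, 115523_at, read 669, 564 and 690 signal units in the CD34+ RNAs and 276, 105 and 152 in the CD34- RNAs. The groups again did not overlap, and the fitted log2 difference was 1.44 (95% interval 0.77 to 2.11), with an adjusted p of 0.0573 (limma) that missed the threshold. The third probe set, 170729_at on C, read 621, 252 and 317 against 280, 246 and 228. Here the groups overlapped, 1 CD34+ RNA stood above the others, and the log2 difference was 0.44 (95% interval -0.42 to 1.29, adjusted p = 0.811, limma). All 3 probe sets thus had a positive difference, and 1 of them was called. Slc25a12, the paralog of Slc25a13 that encodes the other aspartate-glutamate carrier, was not called, with a log2 difference of -0.39 (95% interval -0.86 to 0.08) on B and of 0.11 (-0.34 to 0.56) on C. The difference between the paralogs was not tested.

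**Figure D1:**
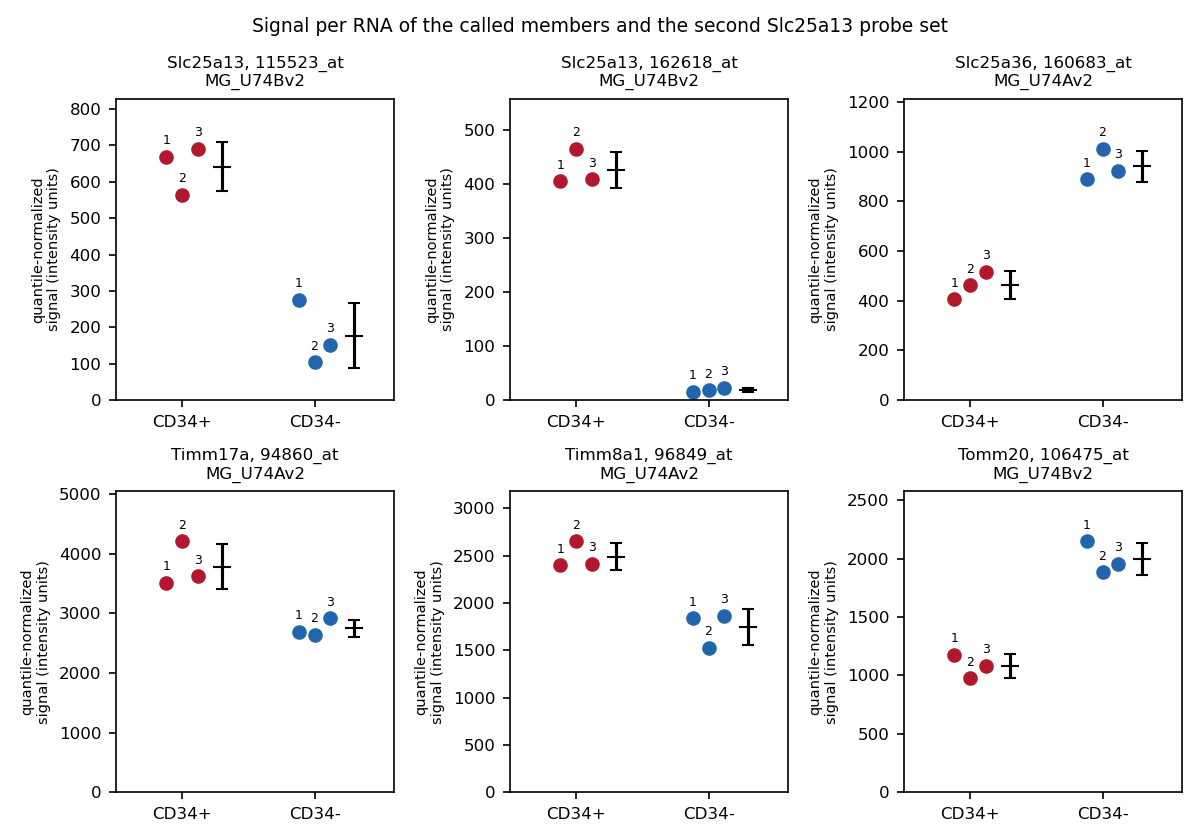
Quantile-normalized signal in intensity units (vertical axis, linear, from 0) of the 5 called probe sets and of 115523_at of Slc25a13 in each RNA. Numbered points are RNAs 1 to 3 of the CD34+ (red) and CD34- (blue) clones, and bars give the mean and SD; in every panel the groups do not overlap, with 162618_at of Slc25a13 at 405 to 465 against 16.0 to 22.6.

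The other 15 substrate carrier genes tested, Slc25a12 included, had no call, and 16 of the 23 probe sets in this group had a positive difference, with a median of 0.15. Slc25a1, the citrate carrier that supplies cytosolic acetyl-CoA for lipid synthesis, read 2700, 2633 and 2911 signal units against 2387, 2598 and 2435 with 94807_at on A. Its groups did not overlap, but the log2 difference was 0.15 (95% interval -0.07 to 0.36, adjusted p = 0.34, limma), and its second probe set gave 0.24. Slc25a10, the dicarboxylate carrier, gave 0.30 on A and 0.10 on B, and Slc25a11, the oxoglutarate-malate carrier and the partner of the aspartate-glutamate carriers in the malate-aspartate shuttle, gave 0.27 (95% interval -0.12 to 0.67). Neither was called. Slc25a20, which brings acylcarnitines in for fatty acid oxidation, gave -0.32 (95% interval -0.66 to 0.01, adjusted p = 0.185, limma). Slc25a15, the ornithine carrier, read 464 to 507 signal units in CD34+ and 456 to 493 in CD34- RNAs, a log2 difference of 0.05. The glutamate carriers Slc25a18 and Slc25a22 gave -0.21 and 0.28, the oxodicarboxylate carrier Slc25a21 0.33 and the glycine carrier Slc25a38 -0.12, all uncalled. For Slc25a44, a carrier of branched-chain amino acids, the values were -0.17 on A and 0.04 on B. Slc25a48 gave -0.73 on B and 0.61 on C, opposite signs for 1 gene. Slc25a29, a carrier of basic amino acids, had the widest interval of this group at -0.57 (-2.06 to 0.91), and Slc25a45 and Slc25a47 gave 0.32 and 0.17.

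Carriers of cofactors, nucleotides and iron had 1 call, that of Slc25a36, a carrier of pyrimidine nucleotides. On A, 160683_at read 406, 463 and 517 signal units in the CD34+ RNAs and 889, 1011 and 923 in the CD34- RNAs. Every CD34+ RNA lay below every CD34- RNA, and the means of 462 ± 55.7 and 941 ± 62.7 (SD, n = 3 each) gave a log2 difference of -0.95 (95% interval -1.27 to -0.64, adjusted p = 0.00229, limma). This was the lowest adjusted p among the members. Its probe set on B, 106089_at, read 301, 429 and 307 against 389, 422 and 530. The groups overlapped there, and the log2 difference of -0.30 (95% interval -0.87 to 0.28, adjusted p = 0.608, limma) had the same sign without passing the test. Slc25a33, which encodes the other pyrimidine nucleotide carrier, gave -0.04 (95% interval -0.37 to 0.29) on B and -0.44 (-1.50 to 0.62) on C.

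The remaining genes of this group had no call. Slc25a37, mitoferrin 1, which imports iron for haem synthesis, had 3 probe sets whose differences ran from -0.97 to 0.40. The first of these, 170276_at on C, read 277, 237 and 378 signal units against 344, 1111 and 742, so that 1 CD34- RNA lay within the CD34+ range (95% interval -1.91 to -0.03, adjusted p = 0.557, limma). The probe sets on B gave 0.40 and 0.02. Slc25a28, mitoferrin 2, gave 0.18 (95% interval -0.22 to 0.58). Slc25a39, which is needed for glutathione import, gave -0.09, and its relative Slc25a40 gave 0.26. The folate carrier gene Slc25a32 was at 0.06. For Slc25a51, a carrier of NAD+, 4 probe sets gave differences of -0.07 to 0.14. The median over the 15 probe sets tested in this group was -0.02.

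Carriers of adenine nucleotides and phosphate, with related carriers, had 0 calls in 16 probe sets of 9 genes (limma, with 2 at an unadjusted p under 0.05). Of the 16 differences, 9 were positive, with a median of 0.08. Slc25a4 encodes the ADP/ATP carrier ANT1, the form best known from heart and skeletal muscle. On A it read 12755, 14188 and 13286 signal units in the CD34+ RNAs and 14119, 13669 and 13764 in the CD34- RNAs. The groups overlapped, and the log2 difference was -0.05 (95% interval -0.20 to 0.10, adjusted p = 0.678, limma). On B it gave -0.02 (95% interval -0.31 to 0.27). Slc25a5, which encodes ANT2, the form of dividing cells, read 4940, 4553 and 4713 against 4216, 4258 and 3270 with 100618_f_at on A. Those groups did not overlap, and the log2 difference was 0.28 (95% interval 0.02 to 0.54, adjusted p = 0.14, limma). The other probe sets of Slc25a5 gave 0.30 and 0.13 and overlapped between the groups. Since Slc25a4 and Slc25a5 are close in sequence, probe sets of either may read both.

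Slc25a3 encodes the phosphate carrier. Its probe set 164443_at on B read 830, 920 and 1171 signal units in the CD34+ RNAs and 361, 696 and 813 in the CD34- RNAs. The groups did not overlap, though the gap between them was narrow, and the log2 difference was 0.61 (95% interval -0.01 to 1.23, adjusted p = 0.313, limma). On A and C the same gene gave 0.32 and -0.39. Among the ATP-Mg/phosphate carriers, which adjust the adenine nucleotide pool of the matrix, Slc25a25 read 1319, 1155 and 1365 against 903, 1028 and 1101 on A. Its groups did not overlap, with a log2 difference of 0.33 (95% interval 0.04 to 0.61, adjusted p = 0.121, limma), and its probe set on B gave 0.20. Slc25a23 gave -0.34 and -0.15 on B, and Slc25a41 gave -0.45 on C. Slc25a42, a carrier of coenzyme A, was at 0.03, Slc25a16 at 0.13 and Slc25a17, whose product works in the peroxisome, at -0.23, all uncalled.

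Of the carriers with other or unknown substrates, 6 probe sets of 3 genes were tested and 0 were called (limma; 0 had an unadjusted p under 0.05). Slc25a46 encodes a protein of the outer membrane that acts in mitochondrial shape and fusion. All 3 of its probe sets on B leaned to higher signal in CD34+ clones, at 0.36, 0.44 and 0.48 on the log2 scale, but each overlapped between the groups. The largest, 116372_at, read 453, 390 and 472 signal units against 205, 272 and 392 (95% interval -0.14 to 1.10, adjusted p = 0.424, limma). Slc25a30 gave -0.28, and Slc25a53 gave -0.22 on A and -0.00 on C.

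**Figure D2:**
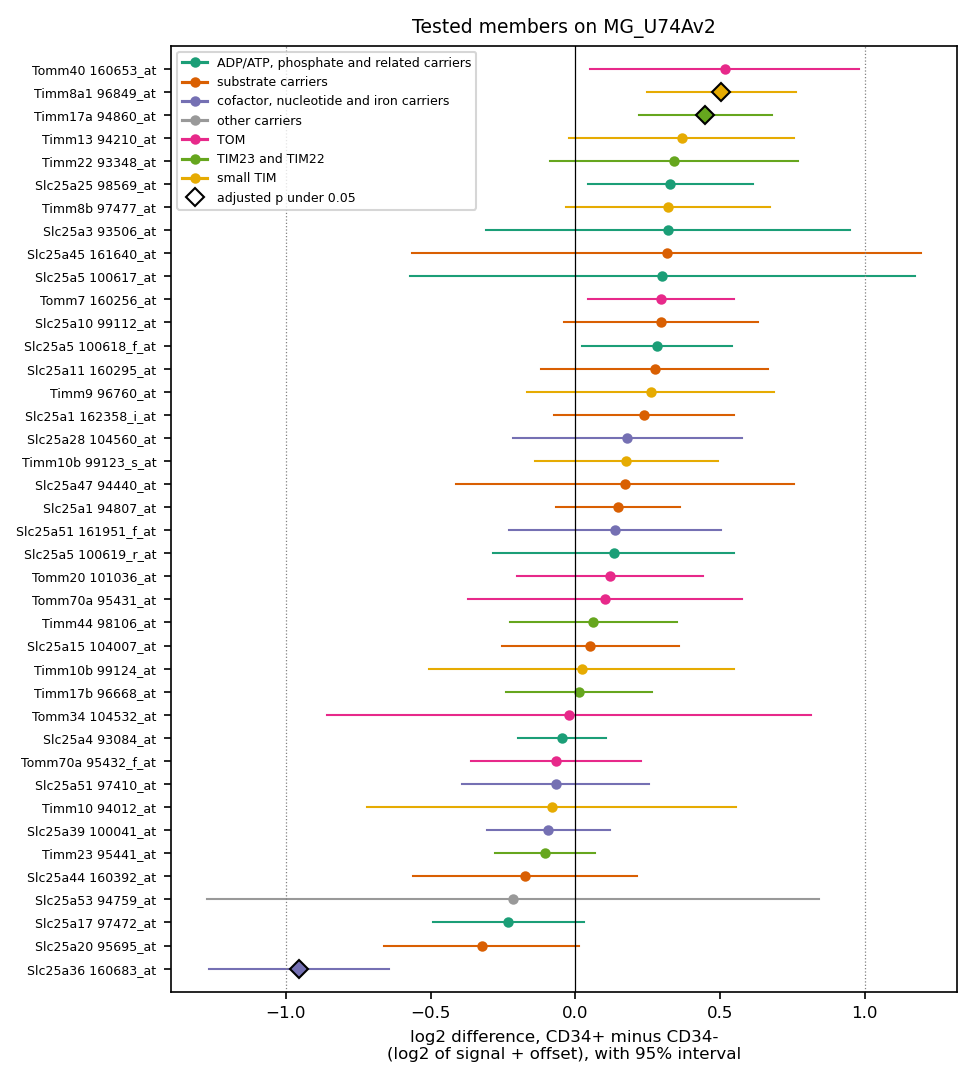
Log2 difference between CD34+ and CD34- clones (horizontal axis, log2 of signal plus offset) of the 40 members tested on MG_U74Av2, with 95% intervals from limma and colours for their roles. Diamonds mark the 3 called probe sets, Slc25a36 at -0.95, Timm17a at 0.45 and Timm8a1 at 0.50. Dotted lines stand at 2-fold either way in signal plus offset.

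In the TOM complex, Tomm20 was called with 1 of its probe sets. The gene encodes the receptor of the outer membrane that binds presequences. On B, 106475_at read 1179, 977 and 1083 signal units in the CD34+ RNAs and 2148, 1884 and 1954 in the CD34- RNAs. The groups were far apart, and the log2 difference was -0.83 (95% interval -1.16 to -0.50, adjusted p = 0.0379, limma). On A, however, 101036_at read 1218, 1012 and 1117 against 1220, 925 and 938. Those groups overlapped, and the difference of 0.12 (95% interval -0.20 to 0.44, adjusted p = 0.622, limma) had the other sign, with an interval that does not reach that of 106475_at. The probe sets of Tomm20 therefore did not give 1 answer for the gene. Its probe set on C was too dim to test.

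The other TOM genes had no call, and the 10 probe sets of 6 genes had a median difference of 0.10. Tomm40, the channel through which proteins cross the outer membrane, read 974, 625 and 1034 signal units against 654, 474 and 644 on A. The groups overlapped through 1 CD34+ RNA, and the log2 difference was 0.52 (95% interval 0.05 to 0.98, adjusted p = 0.131, limma). Its probe set on C, 168324_r_at, gave -0.80 with an interval of -2.03 to 0.43, in which 1 CD34- RNA read 4701 and the other 5 RNAs 757 to 1347. Tomm7, a small subunit, read 3740, 4208 and 4172 against 3093, 2999 and 3789 and gave 0.30 (95% interval 0.04 to 0.55, adjusted p = 0.114, limma). Tomm70a, the receptor for carriers and other proteins without a presequence, had 3 probe sets between -0.07 and 0.10. Tomm34, a cytosolic co-chaperone, gave -0.02, and Tomm40l, a relative of Tomm40, gave 0.18.

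In the inner membrane translocases, Timm17a was called. Timm17a and Timm17b encode alternative forms of a core TIM23 subunit. Timm17a (94860_at on A) read 3517, 4212 and 3629 signal units in the CD34+ RNAs and 2696, 2647 and 2918 in the CD34- RNAs. The CD34+ values lay above all CD34- values, with a log2 difference of 0.45 (95% interval 0.22 to 0.68, adjusted p = 0.0186, limma). Timm17b on A read 4384, 3531 and 3644 against 4184, 3623 and 3623. These values overlapped, and the difference was 0.01 (95% interval -0.24 to 0.27, adjusted p = 0.955, limma). On C, Timm17b gave 0.29 (95% interval -0.12 to 0.70), with no overlap between 2149 to 2536 and 1778 to 2039 signal units. The difference between the paralogs was not tested.

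Timm23, the pore subunit of TIM23, was one of the brightest members on A, at 6076, 6468 and 6323 signal units against 6717, 6513 and 7068. Every CD34+ RNA lay below the CD34- RNAs, but the log2 difference was -0.10 (95% interval -0.28 to 0.07, adjusted p = 0.407, limma). Timm21, which links TIM23 to the respiratory chain, read 729, 698 and 711 against 402, 242 and 618 on B. Its CD34+ RNAs lay close together above the scattered CD34- RNAs, and the log2 difference was 0.70 (95% interval 0.06 to 1.34, adjusted p = 0.262, limma). Timm44, which tethers the import motor, gave 0.06, and Timm50, a presequence receptor, gave 0.12 (95% interval -0.17 to 0.40). In TIM22, the channel subunit Timm22 gave 0.34 (95% interval -0.09 to 0.77). Timm29, another TIM22 subunit, gave -0.10 with 111435_at and -0.81 with 116902_at on B. The latter read 405, 399 and 415 against 930, 376 and 1349, so the CD34+ RNAs were nearly equal and 1 CD34- RNA lay below them (95% interval -1.64 to 0.02, adjusted p = 0.314, limma).

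Small TIM chaperones had 1 call. Timm8a1 encodes the subunit whose human counterpart is mutated in deafness-dystonia syndrome and which works with Timm13. It read 2399, 2652 and 2417 signal units in the CD34+ RNAs and 1839, 1529 and 1867 in the CD34- RNAs on A. No values overlapped, and the log2 difference was 0.50 (95% interval 0.25 to 0.76, adjusted p = 0.0176, limma). Timm13 read 8788, 7445 and 8133 against 8001, 4644 and 6629 and gave 0.37 (95% interval -0.02 to 0.76, adjusted p = 0.194, limma). The groups overlapped through the first CD34- RNA. Timm8b, the paralog of Timm8a1, gave 0.32 (95% interval -0.03 to 0.67), and Timm9 and Timm10, which form the main chaperone for carriers, gave 0.26 and -0.08, none of them called. Timm10b gave 0.18 and 0.02 on A and -0.15 on B. The median over the 8 probe sets of this group was 0.22, and 7 of them were on A, where the median was 0.26.

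**Figure D3:**
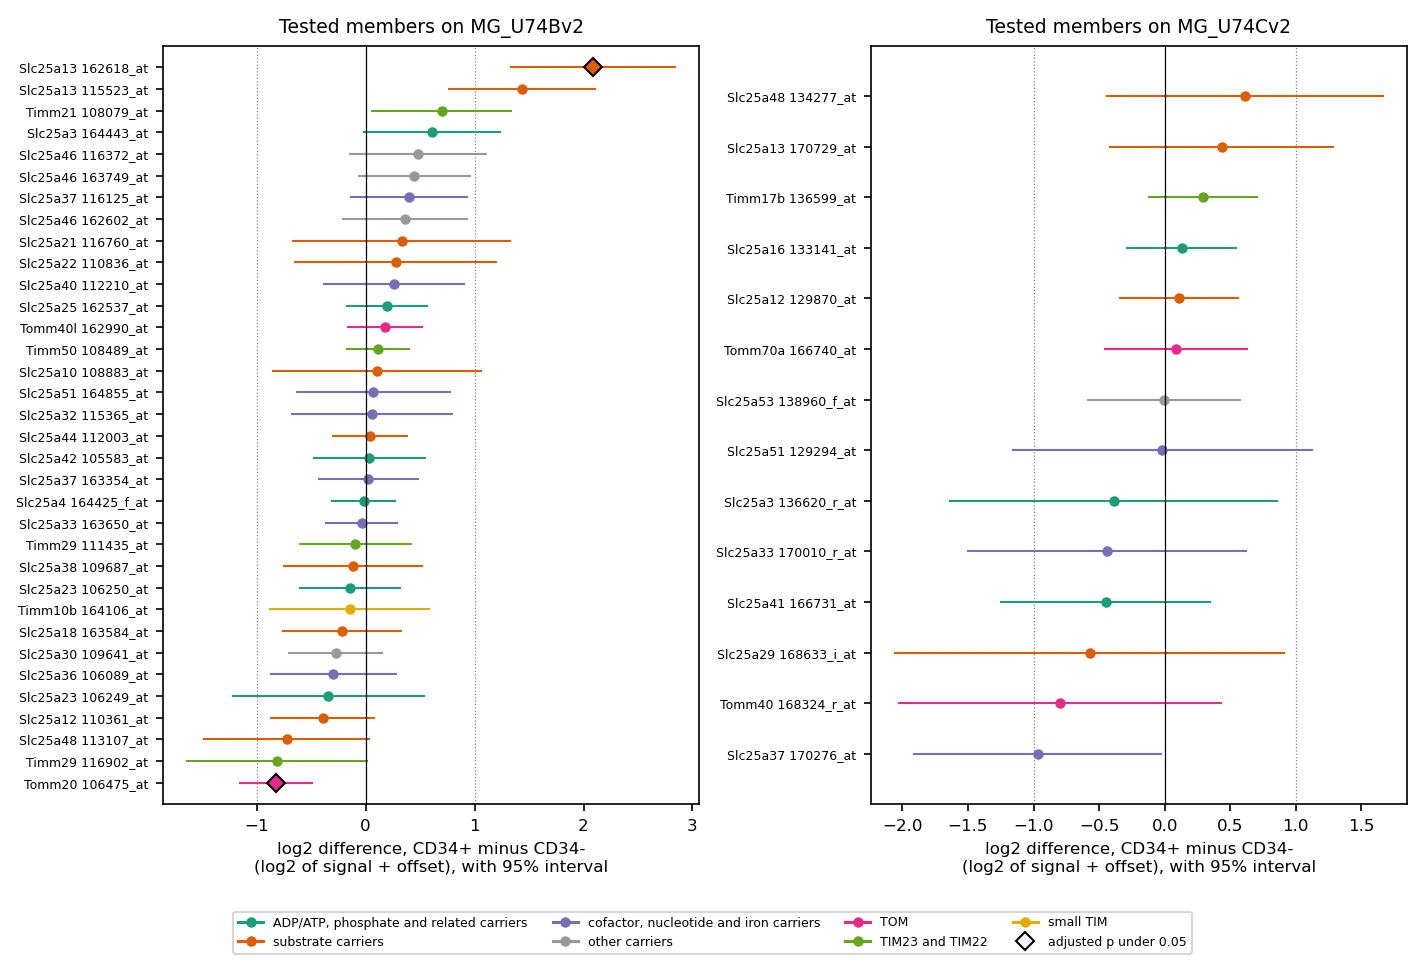
Log2 difference between CD34+ and CD34- clones (horizontal axes, log2 of signal plus offset) of the 34 members tested on MG_U74Bv2 and the 14 on MG_U74Cv2, with 95% intervals from limma and colours for their roles; the scales of the panels differ. Diamonds mark the called Slc25a13 probe set at 2.09 and the called Tomm20 probe set at -0.83, and 0 members were called on MG_U74Cv2.

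The promoters of the 5 genes with a called probe set are shown, Tomm20 with its probe sets in disagreement among them, followed by that of Timm23, an uncalled and bright member chosen, after its values were seen, to show a match that the called genes lack. Each is the RefSeq sequence of GRCm38.p6 for the 150 bases before the annotated start of the gene, written 5′ to 3′ along the transcript, and all 6 genes lie on the minus strand. Capitals mark matches on either strand to GGGCGG, the core of the SP1 motif, or to CCGGAAG, that of GABP, an ETS factor known for nuclear genes of mitochondrial proteins.
Slc25a13 (chr6:6217174-6217323): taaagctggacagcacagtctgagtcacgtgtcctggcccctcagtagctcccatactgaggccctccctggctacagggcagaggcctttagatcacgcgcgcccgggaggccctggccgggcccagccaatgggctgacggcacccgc
Slc25a36 (chr9:97111042-97111191): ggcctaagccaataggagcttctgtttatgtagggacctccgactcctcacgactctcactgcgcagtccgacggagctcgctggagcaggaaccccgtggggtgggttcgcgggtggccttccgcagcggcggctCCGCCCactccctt
Timm17a (chr1:135313738-135313887): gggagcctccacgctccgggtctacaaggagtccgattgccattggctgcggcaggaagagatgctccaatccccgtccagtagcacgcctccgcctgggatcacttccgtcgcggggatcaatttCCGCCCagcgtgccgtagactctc
Timm8a1 (chrX:134541671-134541820): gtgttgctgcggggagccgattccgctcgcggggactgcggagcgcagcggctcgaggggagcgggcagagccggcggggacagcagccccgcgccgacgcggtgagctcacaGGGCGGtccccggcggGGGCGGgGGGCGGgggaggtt
Tomm20 (chr8:126945922-126946071): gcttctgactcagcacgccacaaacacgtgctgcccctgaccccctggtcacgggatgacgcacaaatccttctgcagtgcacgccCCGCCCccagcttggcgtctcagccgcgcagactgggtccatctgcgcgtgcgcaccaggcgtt
Timm23 (chr14:32201892-32202041): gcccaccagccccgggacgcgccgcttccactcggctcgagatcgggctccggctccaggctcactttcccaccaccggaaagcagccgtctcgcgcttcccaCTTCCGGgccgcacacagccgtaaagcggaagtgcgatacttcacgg
Windows from 250 bases before to 50 after the start were found for 50 of the 62 genes, and the first was used for the 9 genes with several. CCGGAAG or its reverse complement CTTCCGG was present in 15 of the 50 (30%) and in 8.86% of all 32851 mouse windows. The members' windows were also richer in CpG, with a median of 19 against 7 CpG, and among windows with at least 19 CpG the shares were 36% (9 of 25) and 19.4% of 9221. In Timm23, 1 match lies in the printed stretch, beginning at position -47, and another after the start. None of the 5 genes with a called probe set had a CCGGAAG match in its window. Most member windows lacked one as well, so 5 genes are too few to set called genes apart from the others. That contrast was not tested. Genes with a match included Slc25a3, Slc25a4, Timm8b, Timm10, Tomm70a and Tomm22, the last of which was too dim to test for a difference. GGGCGG or CCGCCC was present in 70% of the members' windows and 35.7% of all, and in 92% and 80.2% of those rich in CpG. The NRF1 core GCGCATGC (or GCATGCGC) was found in 1 of 50 (2%), against 2.71% of all, and the YY1 core AAGATGGC (or GCCATCTT) in 2 of 50 (4%), against 2.75%. Among windows with at least 19 CpG, the NRF1 core was in 0 of 25, against 6.21%, and the YY1 core in 2 of 25 (8%), against 4.62%. A match describes letters in a window and does not show a binding site.

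As a group, the members leaned slightly upward on A in CD34+ clones. Of their 40 differences, 28 were positive (70%), beside 51.3% over all 7634 probe sets. An unadjusted p under 0.05 (limma) was reached by 7 of the 40 (17.5%), beside 29.3% of all. The members had a median of 0.14 on A, beside 0.01 over all. Leaving out CD34- RNA 2 lowered that median to 0.06, and between the 2 RNAs run on fluidics station 1, 1 of each group, it was -0.04. The medians were 0.05 on B and -0.01 on C, with 0.00 and -0.00 over all. On A, 5 members had all CD34+ RNAs above all CD34- RNAs, where 18.8% of all probe sets did, and 2 had them all below, where 15.7% did. On B, the counts were 4 and 1 of 34, against 12.8% and 10.2%, and on C 1 and 0 of 14, against 7.41% and 6.71%. Groups of 3 that do not overlap give an exact permutation p of 0.1, the smallest that 3 against 3 allow.

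How large a difference could have gone unseen varied between chip types. In signal plus offset, the 95% interval lay within 2-fold either way for 61 of the 83 uncalled probe sets. These were 34 of 37 on A, 22 of 32 on B and 5 of 14 on C. For dim probe sets the offset draws such intervals in, so they do not bound the fold of the signal itself. They also rest on the spread among these RNAs, possibly a technical one. The median half-width of the interval over the members was 0.34 on A, 0.57 on B and 0.90 on C on the log2 scale. On C, differences of nearly 2-fold on that scale thus could not be told from none by the interval alone. The intervals are not adjusted for the number of probe sets tested, so larger differences could also go uncalled. On B, 115523_at of Slc25a13, at 1.44 with an interval of 0.77 to 2.11, was uncalled (adjusted p = 0.0573, limma). A fitted difference of more than 2-fold in signal plus offset was seen in 0 of 40 members on A, beside 2.96% of all probe sets. On B it was seen in 2 of 34, both of Slc25a13, beside 2.43%, and on C in 0 of 14, beside 4.42%. Of the 2 on B, 162618_at had to differ in order to be tested. The other, 115523_at, ran from 0.96 to 1.75 on the log2 scale under the alternatives. The count on B thus says little about the members. Means of the signal alone could be more than 2-fold apart below that mark. Examples are Slc25a36 on A (462 against 941) and 170276_at of Slc25a37 on C (297 against 732).

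For 23 of the genes, more than 1 probe set was tested, and all probe sets of a gene had the same sign for 13 of them (56.5%). Over all 4504 genes with more than 1 tested probe set the share was 49.1%. Slc25a13, Slc25a36, Slc25a46, Slc25a5 and Slc25a25 were among the 13. Tomm20, Tomm40, Slc25a37, Slc25a48 and Slc25a3 were among those with both signs, and in the last 4 the probe set on C had the sign opposite to the others. Probe sets of 1 gene read the same 6 RNAs and are not replicates.

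**Figure D4:**
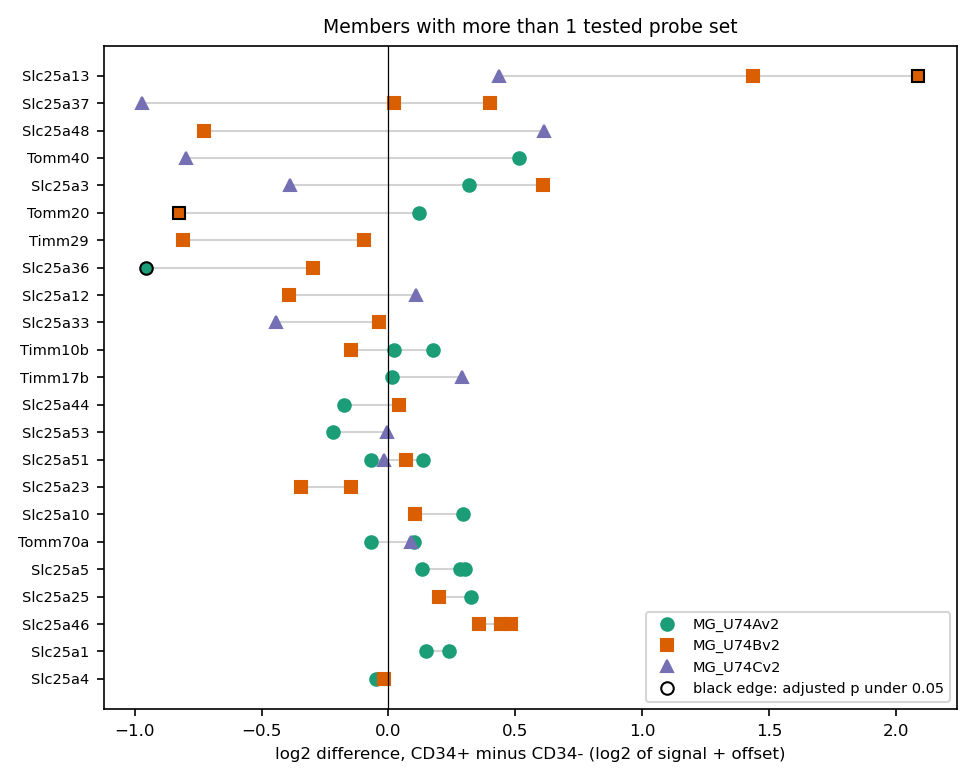
Log2 difference between CD34+ and CD34- clones (horizontal axis, log2 of signal plus offset) of each tested probe set of the 23 genes with more than 1, with symbols for the chip type and black edges for called probe sets. The 3 probe sets of Slc25a13 lie at 0.44, 1.44 and 2.09, and those of Tomm20 on opposite sides of 0, at -0.83 and 0.12.

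The calls differed in how firmly they stood. Slc25a36 on A was called in every alternative that gave a test, at -1.09 to -0.81 on the log2 scale. Timm17a kept its sign at 0.27 to 0.54, but its adjusted p (limma) was 0.0882, 0.0643 and 0.0505 without CD34+ RNA 2, CD34- RNA 1 and CD34- RNA 2, and 0.0546 without a variance trend. For Timm8a1, leaving out CD34+ RNA 2 ended the call, at an adjusted p of 0.0837 (limma), while Tomm40 on A was called in that setting. Both calls on B were lost without any 1 of 5 RNAs, CD34- RNA 2 being the exception, with adjusted p (limma) up to 0.144 for Tomm20 and 0.136 for 162618_at of Slc25a13. Fluidics station moved with the groups on C as on B, in the same layout. On B, all CD34+ RNAs and CD34- RNA 1 ran on station 1, and CD34- RNAs 2 and 3 on station 2. Within station 1, with 3 RNAs against 1, the log2 difference of Tomm20 was -0.93 (adjusted p = 0.19, limma) and that of 162618_at 2.12 (adjusted p = 0.167, limma). A single CD34- RNA carries that comparison, and its spread is assumed to be that of the others, so station and group are hardly separated by it.

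Other parts of the import pathway were listed beside the members. Of 37 probe sets of 21 genes for the import motor, processing, sorting and intermembrane space oxidation, 3 rose and 0 fell by limma, with a median of 0.06. An unadjusted p under 0.05 was reached by 11, of which 7 were higher and 4 lower. These were 8 of 18 on A, 0 of 5 on B and 3 of 14 on C. Over all probe sets tested, the shares were 29.3% on A, 16.4% on B and 8.84% on C. The 3 calls were among 18 probe sets on A, where the background of higher calls was 8.21%. Hspa9, which encodes the mitochondrial Hsp70 that pulls proteins through TIM23, read 7036, 7191 and 6789 signal units in CD34+ against 5399, 4775 and 5532 in CD34- RNAs. These did not overlap, and the log2 difference was 0.42 (95% interval 0.23 to 0.61, adjusted p = 0.0115, limma). Hspe1, the co-chaperonin that folds imported proteins with Hsp60, gave 0.28 (adjusted p = 0.0451, limma), and Immp1l, a subunit of the inner membrane peptidase, gave 0.42 (adjusted p = 0.0418, limma). Among the uncalled, the largest differences ran the other way: Mipep, a peptidase of the matrix, gave -1.24 and -1.20 with 2 probe sets on C (adjusted p = 0.453 and 0.151, limma), both without overlap, -0.78 with another there and 0.18 on B. On A, Hspd1, which encodes Hsp60, gave -0.99 with a dim probe set (172 ± 104 against 378 ± 195 units, SD, n = 3 each). Its bright probe set there gave -0.06 (18074 ± 4581 against 18478 ± 1623 units). Tspo, an outer membrane protein, gave -0.31 on A. Higher on A without overlap, though uncalled, were Dnajc15 at 0.60, Romo1 at 0.38 with 1 of its probe sets and Grpel2 at 0.37. Mtx1 gave 0.72 and -0.19 on A, both with overlap. On C, a further Hspa9 probe set gave 0.78 and another -0.21, both uncalled. Other mitochondrial transport proteins, among them the voltage-dependent anion channels and sideroflexins, had 19 probe sets of 12 genes tested. Of these, 0 were called (limma), and the median was -0.04. An unadjusted p under 0.05 was reached by 4, namely 3 of 8 on A, 1 of 6 on B and 0 of 5 on C. Regulators of mitochondrial biogenesis, with 25 probe sets of 12 genes, had 0 calls (limma) and a median of 0.09. There, 2 had an unadjusted p under 0.05, namely 0 of 11 on A, 1 of 6 on B and 1 of 8 on C.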

How the data were processed

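Per the labels, total RNA was prepared on RNeasy columns and labelled with biotin. The authors deposited a linear intensity for each probe set, computed by MAS5 according to the submitters' processing notes. Version and scaling target of MAS5 were not given in the sources used here. Groups and RNA numbers came from the sample titles. Arrays have no read depth, and their number limits the precision. Quantile normalization was run within a chip type (limma 3.58.1, R 4.3.3), control probe sets were left out, and the filter kept 7634, 7737 and 7481 probe sets and removed 4788, 4674 and 4387. Each chip type was fitted with limma (lmFit, eBayes with an intensity trend), with group as the only term and two-sided Benjamini-Hochberg adjusted p-values. The fit was tested on simulated data. Members, role lists and marker lists were chosen with earlier results of these data known. Named with values were called members, the largest uncalled difference of each role and genes with several probe sets; others were added for completeness, after their values were seen. Symbols came from the platform annotation, and 62 of 62 matched RefSeq (GRCm38.p6) by Entrez identifier with 0 renamed. RNA numbers did not pair the samples: same-number deviations correlated at -0.0493 to 0.0701. Alternatives covered normalization, offset, filter, variance trend, adjustment, blocks and each RNA left out.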

Additional observations from a re-analysis of the deposited data

How the results depend on the processing

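The count of called members on A was 2 to 4 under the alternatives that gave a count (within station 1, with 1 RNA against 1, none could be had), and that on C was 0. The genes behind the count on A varied: Timm17a was lost without a variance trend, Tomm7 was added within station 2 and without CD34- RNA 3, and without CD34+ RNA 2 the calls were Slc25a36 and Tomm40, with both Timm genes lost. On B, where 2 were called, the count was 1 without a filter, with a filter on mean signal above the chip median and without a variance trend, and 0 with the replicate block, with fluidics station as a block and within station 1. With 1 RNA left out at a time it was 0 to 3 on B and 2 to 4 on A. The shared RNA numbers do not pair the samples, and the replicate block left the count on A at 3. The median difference on A was -0.0372 within station 1 (1 RNA against 1) and 0.0568 to 0.165 with 1 RNA left out. On B the median ran from 0.00648 to 0.138 with 1 RNA left out, and on C from -0.142 to 0.0636. With station as a block, and within station 1, the median on C was 0.0857. For fewer samples or degrees of freedom, the cost in precision follows from the alternative itself; other causes were not tested. No probe set named by the rule for called and largest differences changed sign under any alternative. The adjusted p (limma) reached 0.0882 for Timm17a, 0.0837 for Timm8a1, and 0.322 for Tomm20 and for 162618_at of Slc25a13. With adjustment over the 3 chip types together and with the 40th percentile as offset, 115523_at of Slc25a13 passed the threshold, with an adjusted p (limma) of 0.0281 and 0.0473. Signals below the offset, as in CD34- RNAs for 162618_at, give no reliable fold.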
